A study of Mus musculus with 2 samples.

Results

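The MHC class II presentation genes were followed across the antigen-presenting cells of the spleen in 1 wild-type mouse and 1 mouse with sickle cell disease (SCD). They are 10 of the 26124 genes in the files, taken by their symbols: Cd74, H2-Aa, H2-Ab1, H2-Eb1, H2-DMa, H2-DMb1, H2-DMb2, H2-Oa, H2-Ob and Ciita. Each symbol matched exactly 1 gene. Spleen cells had been freed of erythrocytes, enriched for dendritic cells (DCs) by depleting other cells with magnetic beads, and profiled with 10x Genomics 3′ single-cell RNA sequencing, which counts unique molecular identifiers (UMIs). Both mice came from the Berkeley SCD colony, had a mixed genetic background, were 12 to 16 weeks old and received no treatment. Both carried 2 copies of the alpha globin knockout allele Hbatm1Paz. The wild-type mouse, a littermate control that does not sickle, had 1 copy of the beta globin knockout allele Hbbtm1Tow and 1 copy of the human sickle globin transgene Tg(HBA-HBBs)41Paz. The SCD mouse had 2 copies of each. With 1 mouse per group, the differences below lack a replicate check in these data. Every interval in parentheses is an exact 95% interval that covers counting error only. By quantitative PCR of DC-enriched spleen cells from more mice, the study reported strongly lower Cd74 and H2-Ab1 signals in SCD mice. That measure pools all cells of a suspension and does not separate cell groups.

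MHC class II molecules carry peptides from ingested proteins to the cell surface, where CD4+ T cells read them. The alpha and beta chains assemble in the endoplasmic reticulum around the invariant chain (CD74), which fills the peptide groove and steers the complex to endosomes. There, proteases trim the invariant chain, DM exchanges the remaining fragment for antigenic peptides, and DO restrains DM. CIITA is the master transactivator of these genes. It binds no DNA itself but docks on a complex of RFX, CREB and NF-Y proteins that sits on the W, X and Y boxes of their promoters. DCs hold high levels of class II in the steady state, plasmacytoid DCs (pDCs) and monocytes hold less, and red pulp macrophages are best known for recycling iron from aged erythrocytes.

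Of the members, 8 lie in the MHC on chromosome 17 (GRCm38): H2-Oa at chr17:34092340-34095234, H2-DMa at chr17:34119541-34139101, H2-DMb2 at chr17:34143307-34151555, H2-DMb1 at chr17:34153072-34160230, H2-Ob at chr17:34238903-34254414, H2-Ab1 at chr17:34257689-34269419, H2-Aa at chr17:34282744-34287823 and H2-Eb1 at chr17:34305867-34316674. All but H2-Aa are on the plus strand. Ciita lies at chr16:10480059-10528418 (plus strand). In the annotation, H2-DMa, H2-Eb1, H2-Oa and Ciita overlap genes of the opposite strand (among them Brd2 at H2-DMa and Dexi at Ciita), and whether the counting used strand is not given in the sources used here. H2-DMb1 and H2-DMb2 are near copies of each other. Of the 91-base stretches of their longest transcripts, 15.7% of those in H2-DMb1 and 15.1% of those in H2-DMb2 were also found in another gene. In the last 500 bases, nearest to the 3′ tag, it was 12.4% for H2-DMb1 and 1.22% for H2-DMb2. For the other 8 members both were 0%. Counts of the H2-DMb pair are therefore less certain than those of the rest.

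Promoter windows of 300 bases, from 250 before to 50 after a start site, were available for 7 of the 10 members from RefSeq (GRCm38.p6). A Y box (TGATTGG, searched on both strands) stood in the windows of 6 of these 7 members, against 7.82% of all 32851 windows, and each lay 45 to 92 bases before the start site. The RFX-bound X box holds the letters AGNAAC, which were found within 40 bases before the Y box in 4 members and in 0.335% of all windows. The 60-base stretches around the Y boxes are shown because these boxes are the letters most of the windows have in common. Capitals mark the Y box and, where those letters occurred, the X box, and each stretch is read 5′ to 3′ on the strand of its gene.
H2-Aa (chr17:34287859-34287918, minus strand): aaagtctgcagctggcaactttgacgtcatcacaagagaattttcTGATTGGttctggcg
H2-Eb1 (chr17:34305761-34305820, plus strand): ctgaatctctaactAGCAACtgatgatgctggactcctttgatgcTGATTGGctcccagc
H2-DMb1 (chr17:34153083-34153142, plus strand): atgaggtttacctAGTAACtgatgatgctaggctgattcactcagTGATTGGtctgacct
H2-DMb2 (chr17:34145112-34145171, plus strand): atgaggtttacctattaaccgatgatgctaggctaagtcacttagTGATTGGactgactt
H2-Oa (chr17:34092289-34092348, plus strand): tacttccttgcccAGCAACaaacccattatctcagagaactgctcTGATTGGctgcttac
H2-Ob (chr17:34238801-34238860, plus strand): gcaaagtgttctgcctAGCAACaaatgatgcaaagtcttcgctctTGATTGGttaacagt
The H2-Aa and H2-DMb2 windows hold no AGNAAC before the Y box, and the 2 windows of H2-DMa hold neither set of letters. A match is a description of the letters, not of binding.

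Filtering left 9424 wild-type cells with 60855219 UMIs and 10636 SCD cells with 99614660 UMIs. The libraries shared 88 cell barcodes (30 wild-type and 35 SCD kept cells), and leaving these cells out left the summed ratio of all kept cells, cDCs, pDCs, monocytes and red pulp macrophages inside its interval. This was not run for the subtypes. Cells were clustered jointly without the members, and clusters were named from markers that held no member, so all names below stand for cells like that type. Hbb-bs was at 2293 CPM (the UMIs of a gene relative to all UMIs of the cells summed, scaled to a common total) in wild-type and 20.8 CPM in SCD cells, in the direction of the genotypes. Hba-a1 was at 915 and 792 CPM although both mice are labelled as alpha globin knockouts; whether the 3′ tag lies inside the disrupted part is not given in the sources used here. The SCD DCs and pDCs carried more neutrophil transcripts. The summed level of 15 neutrophil markers was 2877 and 30032 CPM in cDC1s, 1008 and 5022 CPM in Clec4a4-type cDC2s, 1210 and 6146 CPM in mature DCs and 688 and 4413 CPM in the main pDC cluster. The part of these transcripts in the results was not tested.

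Over all kept cells the summed members were at 20810 CPM (wild-type) and 4117 CPM (SCD), a ratio of SCD over wild-type of 0.198 (0.197 to 0.199). All 10 members were at least 1.5-fold lower, the fold used as a call throughout, as were 34.5% of the 5672 genes tested (a mean of 20 CPM over the libraries and 20 UMIs in all). The ratios ran from 0.130 for H2-DMb2 to 0.406 for H2-DMb1. Conventional DCs (cDCs) gave 83.3% (wild-type) and 74.4% (SCD) of the UMIs of the members, while holding 38.2% and 7.61% of all UMIs. When the wild-type levels of each cell group were kept and the cells were weighted as in the SCD library, the ratio of the sum was 0.271. When the SCD levels were kept and the cells were weighted as in the wild-type library, it was 0.823. Exchanging the make-up thus moved the sum more than exchanging the levels. The part of the bead depletion in the make-up was not tested.

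**Figure D1:**
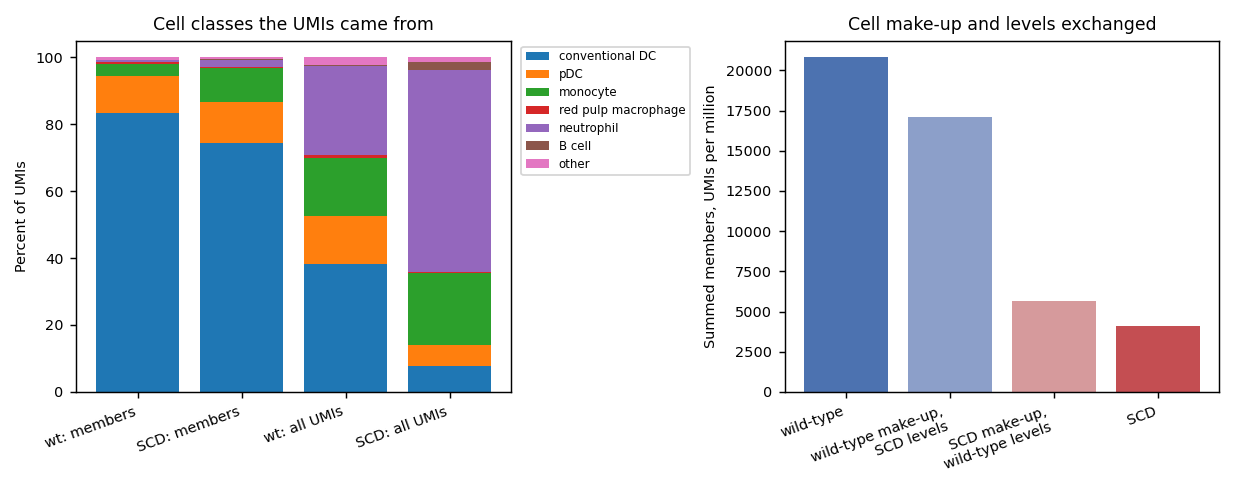
Left, share (percent) of the UMIs of the 10 members and of all UMIs that came from each cell class in the wild-type (wt) and SCD libraries. Right, summed level of the members (CPM) as measured and after exchanging cell make-up or levels between the libraries: 20810 CPM in the wild-type library, 4117 CPM in the SCD library, and 5635 CPM with the SCD make-up and wild-type levels.

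As a background, neutrophils were used, which should hold little class II RNA. They had 525 (wild-type) and 148 CPM (SCD) of the summed members. After thinning each cell to 1000 UMIs, at least 1 UMI of a member was held by 35.8% of neutrophils in the wild-type (34.3 to 37.2) and 11.0% in the SCD library (10.2 to 11.7). Their median depths were 2454 and 6951 UMIs, 46 and 12 cells were too shallow to thin, and at full depth the shares were 67.9% and 52.2%. This background thus differed between the libraries in the same direction as the members. Different clusters made up the neutrophils, since 1 cluster held 3655 of the 4383 wild-type but 570 of the 7186 SCD cells, and free RNA, doublets and the cells' own transcripts cannot be told apart here. In erythroid cells (57 and 76 cells) the sum was 7067 and 158 CPM, and in the wild-type library 87.1% of these UMIs lay in the tenth of cells richest in them.

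Cd74, the invariant chain, was at 22565 CPM in wild-type and 18632 CPM in SCD Clec4a4-type cDC2s, a ratio of 0.826 (0.816 to 0.836). With 1386 wild-type and 210 SCD cells this was the largest wild-type DC group. In cDC1s, the cross-presenting subset that carries Xcr1 and Clec9a, Cd74 was at 21458 and 19348 CPM, a ratio of 0.902 (0.892 to 0.912), in 169 and 230 cells. In Cd209a-type cDC2s (209 and 132 cells) it was at 17481 and 13916 CPM and in mature DCs (619 and 88 cells), the Ccr7 and Fscn1 bearing migratory state, at 16527 and 13067 CPM, ratios of 0.796 and 0.791. In each of these 4 groups the SCD level was lower, by less than 1.5-fold.

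The Cd209a-type group was led by Cd209a, Clec10a and Clec4b1, but only 2 of its 7 markers were highest there among the wild-type DC, pDC and monocyte groups, and the Clec4a4-type group led in 3 of its 6 markers, so these names are less firm. For cDC1s 7 of 8 markers and for mature DCs 12 of 12 were highest in the group named after them.

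H2-Aa and H2-Ab1 encode the alpha and beta chain of the I-A molecule, and H2-Eb1 the beta chain of I-E. In cDC1s H2-Aa was at 8488 CPM (wild-type) and 7530 CPM (SCD), H2-Ab1 at 9343 and 9011 CPM, and H2-Eb1 at 6374 and 6317 CPM. The ratios were 0.887, 0.964 (0.948 to 0.981) and 0.991 (0.971 to 1.011), and for H2-Eb1 the interval of the ratio includes 1. In Clec4a4-type cDC2s the 3 chains were at 9934, 9670 and 7525 CPM in wild-type and 8621, 8569 and 6863 CPM in SCD cells, ratios of 0.868 to 0.912. In mature DCs they were at 7106, 4352 and 5105 CPM against 5665, 3353 and 4458 CPM, ratios of 0.771 to 0.873. No classical chain passed 1.5-fold in any of the 4 DC groups as processed here. In Cd209a-type cDC2s the ratios were much lower with no mitochondrial or ribosomal filter, at 0.383 for Cd74, 0.397 for H2-Aa, 0.432 for H2-Ab1 and 0.411 for H2-Eb1, all past 1.5-fold.

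The I-E alpha gene is a pseudogene in some strains and is listed as H2-Ea-ps. It had 10 UMIs in all wild-type cDCs and 1 in all SCD cDCs, so I-E alpha transcripts were near 0 in both libraries while the I-E beta gene was among the abundant members.

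H2-DMa, H2-DMb1 and H2-DMb2 encode the DM heterodimer, which edits peptides. H2-DMa was at 753 and 705 CPM in Clec4a4-type cDC2s, 722 and 804 CPM in cDC1s, and 971 and 952 CPM in Cd209a-type cDC2s. Its ratios of 0.936 (0.878 to 0.997), 1.11 (1.05 to 1.18) and 0.980 (0.917 to 1.05) did not share a direction. In mature DCs H2-DMa was lower in both libraries, at 198 and 155 CPM. The beta chain genes split the DC groups. H2-DMb1 was at 601 and 534 CPM in cDC1s and 621 and 715 CPM in Cd209a-type cDC2s, but at 254 and 209 CPM in Clec4a4-type cDC2s and 81.7 and 64.0 CPM in mature DCs. H2-DMb2 had the opposite order, with 589 and 560 CPM in Clec4a4-type cDC2s and 244 and 242 CPM in mature DCs against 81.5 and 99.8 CPM in cDC1s.

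As a share of the beta chain UMIs, H2-DMb2 made up 69.9% (68.9 to 70.8) in wild-type and 72.8% (70.2 to 75.3) in SCD Clec4a4-type cDC2s, and 74.9% and 79.1% in mature DCs. It made up 11.9% (10.5 to 13.5) and 15.8% (14.2 to 17.4) in cDC1s, 14.3% and 7.96% in Cd209a-type cDC2s, and 26.3% and 19.9% in the main pDC cluster. Clec4a4-type cDC2s and mature DCs were thus apart from the other 3 groups in both mice, by more than the mice differed within any of the 5 groups. Because 3′ capture can differ from gene to gene, such shares are compared across cells and not read as amounts of protein.

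H2-Oa and H2-Ob encode DO, the partner that holds DM back. H2-Oa was at 590 and 548 CPM in Clec4a4-type cDC2s, 287 and 238 CPM in mature DCs, 206 and 247 CPM in cDC1s and 133 and 102 CPM in Cd209a-type cDC2s. H2-Ob was at 356 and 305 CPM in Clec4a4-type cDC2s, 223 and 266 CPM in cDC1s, and at or below 59.0 CPM in Cd209a-type cDC2s and mature DCs. In cDC1s both DO genes were higher in the SCD library, with ratios of 1.197 (1.07 to 1.34) and 1.19 (1.07 to 1.33), against 0.930 and 0.855 in Clec4a4-type cDC2s. None of these passed 1.5-fold. In mature DCs the H2-Ob ratio reached 1.595 with no upper gene limit.

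Set against DM, the DO genes gave 59.3 UMIs per 100 DM UMIs in wild-type (57.9 to 60.8) and 57.8 in SCD (54.0 to 61.9) Clec4a4-type cDC2s. The value was 62.0 and 60.9 in mature DCs, 30.5 and 35.7 in cDC1s, 24.7 and 21.0 in the main pDC cluster and 11.3 and 9.28 in Cd209a-type cDC2s. The intervals of the 2 mice overlapped in Clec4a4-type cDC2s, mature DCs and, narrowly, Cd209a-type cDC2s. They were apart in cDC1s, where the SCD value was higher, and in the main pDC cluster, where it was lower (23.2 to 26.3 against 19.1 to 23.1). The I-A pair also had a group of its own. H2-Ab1 gave 1.10 and 1.197 UMIs per H2-Aa UMI in cDC1s and 0.973 and 0.994 in Clec4a4-type cDC2s, but 0.612 (0.601 to 0.624) and 0.592 (0.557 to 0.628) in mature DCs.

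**Figure D2:**
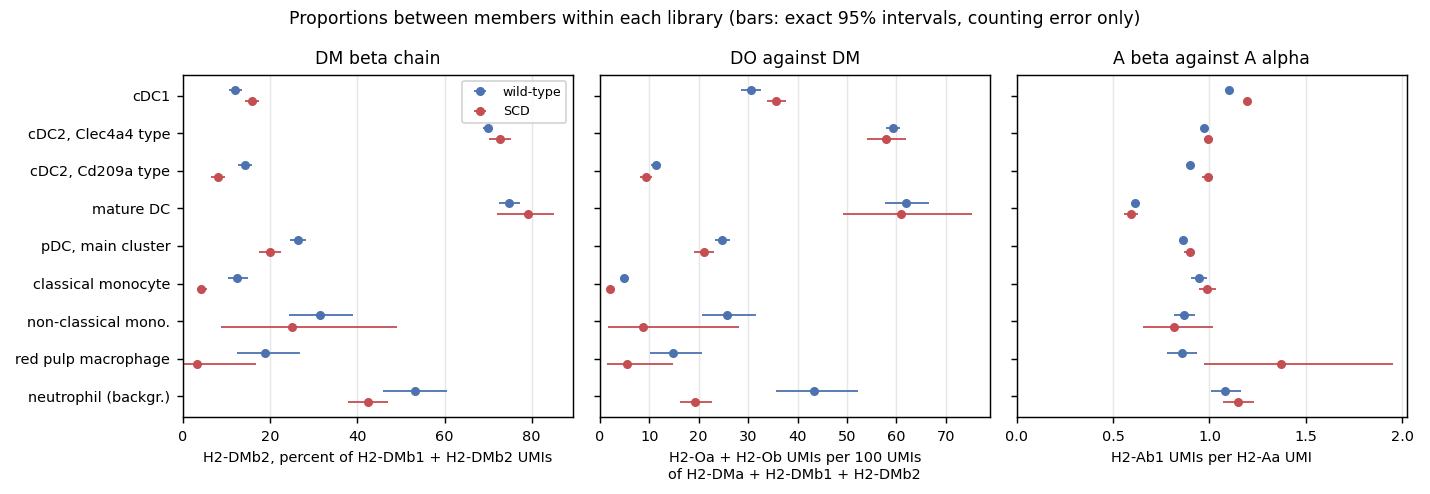
Proportions between members within the wild-type and SCD libraries, by cell group: H2-DMb2 as percent of H2-DMb1 and H2-DMb2 UMIs, H2-Oa and H2-Ob UMIs per 100 UMIs of the DM genes, and H2-Ab1 UMIs per H2-Aa UMI. Points are values and bars exact 95% intervals; Clec4a4-type cDC2s and mature DCs are above 69% H2-DMb2 in both libraries, cDC1s at 11.9% and 15.8%.

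Ciita was highest in Clec4a4-type cDC2s (940 and 849 CPM) and cDC1s (747 and 699 CPM), and lower in mature DCs (406 and 384 CPM) and Cd209a-type cDC2s (314 and 290 CPM). The order of the 4 groups was the same in both mice. The ratios ran from 0.903 (0.853 to 0.957) to 0.945 (0.811 to 1.10), and in mature DCs and Cd209a-type cDC2s the interval included 1. In Cd209a-type cDC2s the Ciita ratio was 0.461 with no mitochondrial or ribosomal filter. Cd209a-type cDC2s thus held less Ciita than mature DCs but more H2-Ab1 (6364 and 5873 CPM against 4352 and 3353 CPM).

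Taking the 4 DC groups as a whole, 0 of 10 members passed 1.5-fold in either direction in cDC1s, Clec4a4-type cDC2s and mature DCs. Of all genes tested there, 3.01%, 3.02% and 10.9% were at least 1.5-fold lower and 2.45%, 1.78% and 8.92% higher. In Cd209a-type cDC2s 1 of 10 did (H2-DMb2, ratio 0.599, 0.468 to 0.763), against 6.11% of all genes (at 2-fold, 0 members and 1.38%). This group depended on the settings. With no mitochondrial or ribosomal filter it held 205 wild-type and 254 SCD cells, of which 177 and 120 were in it before, and 10 of 10 members were at least 1.5-fold lower, against 10.1% of all genes. With total count normalization before clustering it held 243 and 289 cells, and 8 of 10 were lower, against 9.6% of all genes. The median ratio of the members was 0.978 in cDC1s, 0.895 in Clec4a4-type cDC2s, 0.914 in Cd209a-type cDC2s and 0.814 in mature DCs, beside medians over all genes tested of 0.963, 0.976, 0.999 and 0.983. The summed members had ratios of 0.930 (0.923 to 0.937), 0.862 (0.856 to 0.869), 0.850 (0.841 to 0.859) and 0.806 (0.792 to 0.820).

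Pooled into 1 class, cDCs had a different pattern. H2-DMb2 was at 388 CPM (wild-type) and 217 CPM (SCD), a ratio of 0.558 (0.529 to 0.589) and the only member past 1.5-fold, against 11.5% of all genes (at 2-fold, 0 members and 3.63%). Over the settings tried H2-DMb1 reached 1.62 and H2-Oa 0.547, past 1.5-fold. H2-Oa was at 410 and 283 CPM (ratio 0.691), while H2-DMb1 was at 296 and 443 CPM (ratio 1.49, 1.43 to 1.56). When the SCD level of each cluster was weighted by the wild-type UMIs of that cluster, the 3 ratios became 0.975, 0.938 and 0.953. The make-up of the class differed: cDC1s held 11.5% of the cDC UMIs in the wild-type and 44.0% in the SCD library, and Clec4a4-type cDC2s 47.2% and 20.5%. The ratios of H2-DMb1, H2-DMb2 and H2-Oa were thus close to 1 at equal make-up. A small dividing cDC cluster (132 and 17 cells) was the exception in direction, with a summed ratio of 1.38 (1.35 to 1.41). H2-Eb1 (1.56) and H2-DMb2 (1.62) were at least 1.5-fold higher in its 17 SCD cells, 2 of 10 tested, against 14.5% of all genes.

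**Figure D3:**
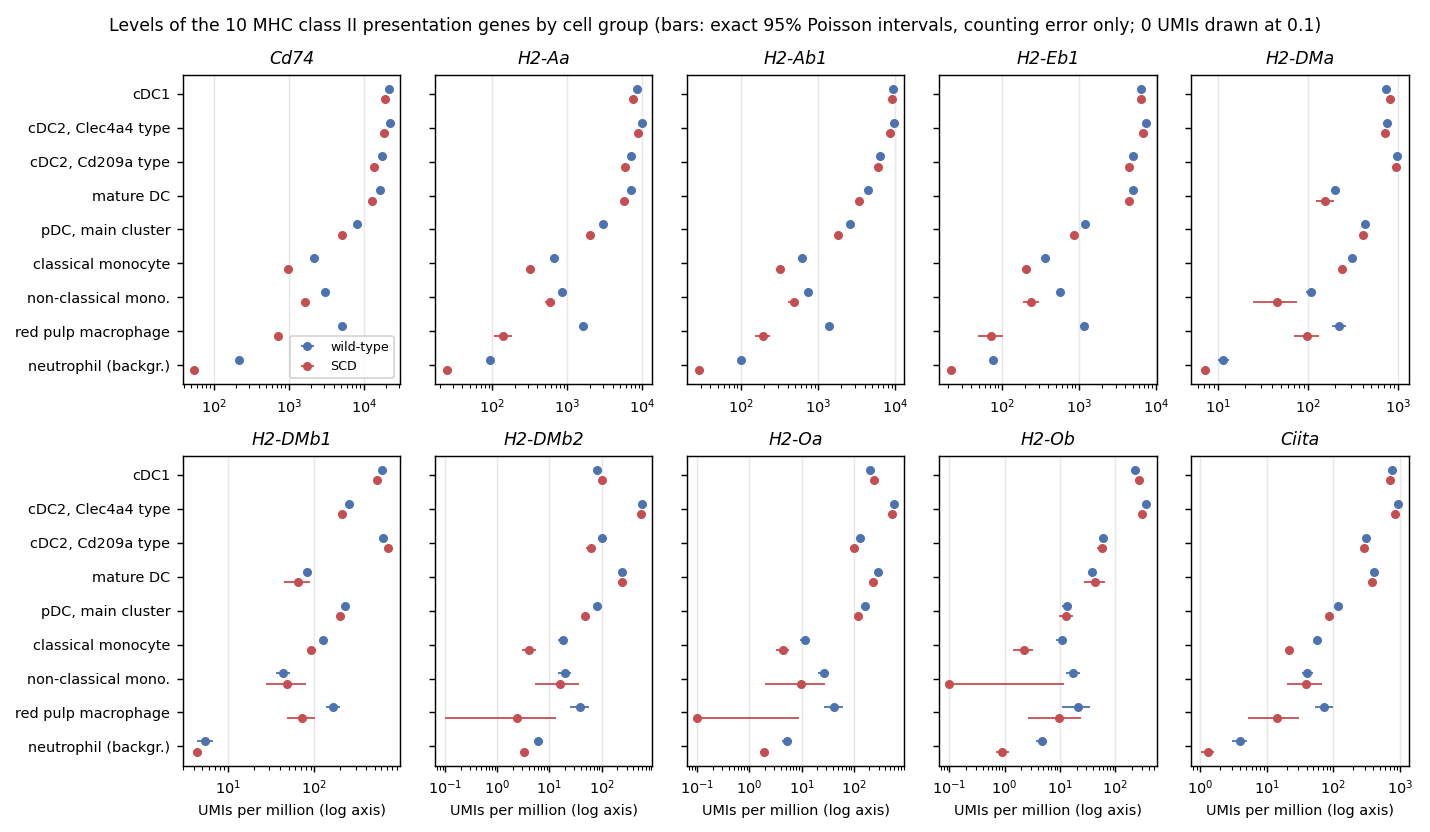
Level of each member (CPM, log axis, a separate axis range per gene) in 9 cell groups of the wild-type and SCD libraries, with neutrophils as background. Points are sums over all cells of a group and bars exact 95% Poisson intervals; a group with 0 UMIs is drawn at 0.1. The DC groups of both libraries lie close together for most members. The classical chains and Cd74 part in pDCs, monocytes and red pulp macrophages and also in the neutrophil background (Cd74 ratio 0.249), while H2-DMa in the main pDC cluster does not (424 and 400 CPM).

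Single cells within the DC groups were not alike. After thinning to 1000 UMIs, the quartiles of the summed members per cell were 43, 55 and 65 UMIs in wild-type and 36.25, 47 and 58.75 UMIs in SCD Clec4a4-type cDC2s. In Cd209a-type cDC2s they were 4, 32 and 72 UMIs and 3, 24 and 59 UMIs, so that group held both cells with few and cells with many class II transcripts. Cells with under 10 member UMIs per 1000 made up 31.1% (24.9 to 37.9) and 32.8% (24.9 to 41.6) of Cd209a-type cDC2s, and 28.5% (24.99 to 32.3) and 41.4% (30.9 to 52.4) of mature DCs. In cDC1s and Clec4a4-type cDC2s no more than 1.75% of cells were that low. This split was present in both mice.

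**Figure D4:**
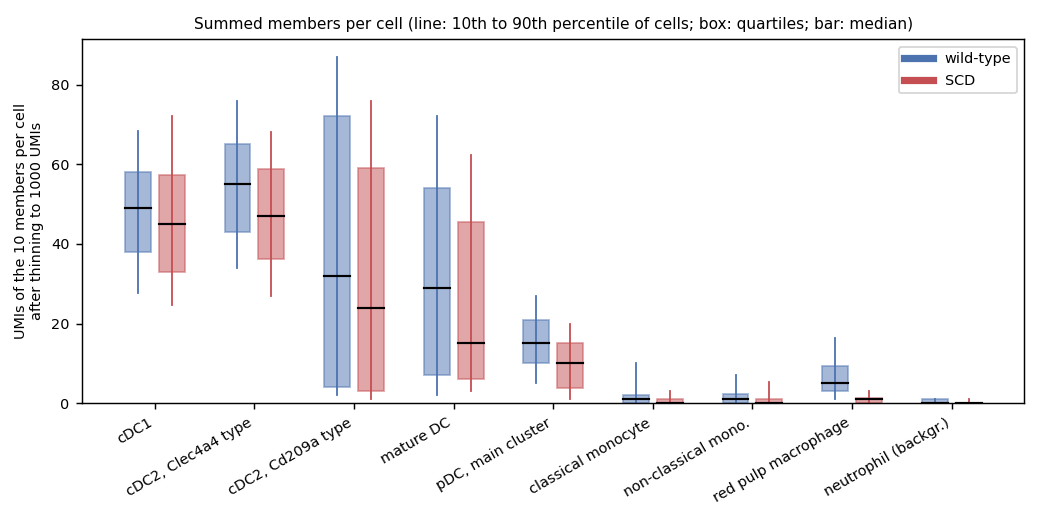
UMIs of the 10 members per cell after thinning each cell to 1000 UMIs (linear axis). Black bars are medians, boxes quartiles and lines the 10th to 90th percentile of cells in the wild-type and SCD libraries; Cd209a-type cDC2s and mature DCs spread widest, and monocytes and neutrophils have medians of 0 or 1.

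pDCs, which sense nucleic acids and secrete interferons, held less class II RNA than pooled cDCs, and their summed ratio was lower as processed here. The difference between the groups was not tested, and Cd209a-type cDC2s reached a summed ratio of 0.408 over the settings tried. In the main pDC cluster (653 and 469 cells) the sum was 15998 CPM (wild-type) and 10694 CPM (SCD), a ratio of 0.668 (0.661 to 0.676). The 15 cDC markers summed to 1091 and 839 CPM there, with 3 at 0 in each library, and their part in the result was not tested. The erythroid level given above, higher in the wild-type library, was not subtracted for pDCs. Cd74 was at 8243 and 5169 CPM (ratio 0.627) and H2-DMb2 at 81.5 and 49.0 CPM (0.602), and these 2 of the 9 members tested passed 1.5-fold, against 1.46% of all genes (at 2-fold, 0 members and 0.195%). Both calls ended when the members were kept among the clustering genes (0.787 and 0.753), and the summed ratio ran from 0.581 to 0.837 over the settings tried. H2-Aa, H2-Ab1 and H2-Eb1 had ratios of 0.675, 0.704 and 0.712, just inside the fold. H2-DMa, at 424 and 400 CPM, had a ratio of 0.945 (0.889 to 1.004), and H2-Ob was at 13.4 and 12.9 CPM, under the count filter. H2-Eb1 gave 0.476 and 0.482 UMIs per H2-Ab1 UMI in this cluster, against 0.682 and 0.701 in cDC1s. Cells with under 10 member UMIs per 1000 made up 24.96% of wild-type (21.7 to 28.5) and 45.7% of SCD cells (41.1 to 50.4).

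Over the whole pDC class (761 and 624 cells) 7 of 9 members tested were at least 1.5-fold lower, against 4.06% of all genes. The 15 neutrophil markers summed to 5881 and 35543 CPM over the class, and their part in the result was not tested. The summed ratio of the members was 0.485 (0.480 to 0.490). With the wild-type make-up of clusters it was 0.601. A small cluster with pDC markers, led by Bcl2, Ly6d and Tmem119, had 10 wild-type and 87 SCD cells and held 2.00% and 19.6% of the pDC UMIs. Its SCD cells had 173 CPM of Cd74, 49.8 CPM of H2-Aa and 2 UMIs of Ciita in all, but 293 CPM of H2-DMa, which was 0.800 (0.612 to 1.06) of the wild-type level. The summed ratio there was 0.0906, and 9 of 10 members passed 1.5-fold, against 16.4% of all genes. H2-DMb2, H2-Oa, H2-Ob and Ciita were under 20 CPM in its SCD cells and reached the count filter only through the wild-type cells. Under 10 member UMIs per 1000 were held by 60% (26.2 to 87.8) of its 10 wild-type and 100% (95.8 to 100) of its 87 SCD cells. Called doublets made up 12.1% and 7.37% of the pDC class, most of them in a further cluster that took no subtype name, and the class ratio without that cluster was 0.526.

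Monocytes had low levels, carried by a minority of cells. Classical monocytes (566 and 909 cells), the Ly6c2 and Ccr2 bearing blood-derived cells, had a sum of 4371 CPM (wild-type) and 2199.8 CPM (SCD), a ratio of 0.503 (0.495 to 0.512). Of the 7 members tested 5 were at least 1.5-fold lower (Cd74, H2-Aa, H2-Ab1, H2-Eb1 and Ciita, ratios of 0.377 to 0.581), against 7.84% of all genes, and H2-DMa (0.757) and H2-DMb1 (0.729) were not. At 2-fold 3 were lower, against 1.88% of all genes, and with no count filter 8 of 10 were at least 1.5-fold lower, against 20.2%. Over the settings tried H2-Ab1 reached 0.681 and H2-Eb1 0.854, which ended their calls. The median cell held 1 member UMI per 1000 in the wild-type and 0 in the SCD library, and the tenth of cells richest in them held 76.1% and 80.9% of the member UMIs. Different clusters made up this group in the 2 mice. In the cluster with most of the wild-type cells (534 and 17 cells, led by Apoe, Tppp3 and Arhgef37) the sum was 4364 and 9187 CPM. In the cluster with most of the SCD cells (32 and 892 cells, led by Vcan and Fn1) it was 4483 (4278 to 4694) and 2064 CPM. The direction thus depended on the cluster, each time with 1 library at 17 or 32 cells. The 15 cDC markers summed to 325 and 317 CPM in classical monocytes and the 15 neutrophil markers to 938 and 4527 CPM, and the part of other cells' RNA in these values was not tested.

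Non-classical monocytes, the patrolling Ace and Cd300e bearing cells (394 and 49 cells), had a sum of 5452 and 3106 CPM, a ratio of 0.570 (0.533 to 0.608). Cd74, H2-Ab1, H2-Eb1 and H2-DMa were at least 1.5-fold lower, 4 of 7 tested, against 10.5% of all genes (at 2-fold, 2 members and 2.88%). The neutrophil markers summed to 989 and 5625 CPM and the cDC markers to 134 and 87.2 CPM, and their part in this was not tested. The summed ratio ran from 0.349 to 0.944 over the settings tried. With the members among the clustering genes, Cd74 (0.887), H2-Ab1 (0.987) and H2-Eb1 (0.885) were within 1.5-fold. Ciita was at 41.1 and 38.8 CPM, the latter from 12 UMIs, and its ratio of 0.944 had an interval of 0.473 to 1.72 and reached 2.38 without called doublets. Dividing monocytes (45 and 371 cells) had a sum of 1574 and 1784 CPM, a ratio of 1.13 (1.07 to 1.203). H2-Ab1 (1.56, 1.31 to 1.86) and H2-Eb1 (1.51, 1.18 to 1.94) were at least 1.5-fold higher there, 2 of 6 tested, against 3.32% of all genes. The wild-type values of these 2 genes rested on 140 and 72 UMIs, and the wild-type sum lay below that of wild-type erythroid cells. Dividing clusters were not run under the other settings. Over the whole monocyte class the summed ratio was 0.445 and 5 of 7 members tested were lower, against 15.6% of all genes, and with no count filter 8 of 10, against 24.5%. With the wild-type make-up of clusters the ratio was 1.37, where the 17 SCD cells named above stood for most of the classical monocytes. After thinning, 59.3% of wild-type (56.3 to 62.2) and 39.7% of SCD (37.2 to 42.3) monocytes held a member UMI, above the neutrophil shares of 35.8% and 11.0%. The wild-type share was within the interval of wild-type erythroid cells (39.0 to 66.0), which should lack these genes, so it is not read as expression. The SCD share was above that of SCD erythroid cells, 22.4% (13.6 to 33.4).

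Red pulp macrophages, marked by Vcam1, C1qa and Cd5l, had the lowest ratio of the cDC, pDC, monocyte and macrophage classes. They were few and shallow, with 287 wild-type and 156 SCD cells and medians of 1332 and 1543.5 UMIs. The sum was 9877 CPM (wild-type) and 1314 CPM (SCD), a ratio of 0.133 (0.122 to 0.145). The tenth of cells richest in members held 62.6% and 65.0% of these UMIs, and 77.4% and 98.5% of cells had under 10 per 1000. Cd74 was at 5159 and 714 CPM, H2-Aa at 1621 and 140 CPM, H2-Ab1 at 1385 and 193 CPM and H2-Eb1 at 1152 and 71.4 CPM, ratios of 0.138, 0.0867, 0.139 and 0.0620. H2-DMa (221 and 97.6 CPM) and H2-DMb1 (165 and 71.4 CPM) had smaller differences, with ratios of 0.442 and 0.434. H2-Oa had 26 UMIs in the wild-type and 0 in the SCD cells, 5.82-fold lower if the SCD sum is set to a floor of 3 UMIs. The upper end of the exact interval of its ratio was 0.227. All 9 members tested were at least 1.5-fold lower, against 17.6% of all genes, and the upper ends of their intervals ran from 0.0893 to 0.657. Ciita had 46 and 6 UMIs (ratio 0.194, 0.0678 to 0.456) and H2-DMb2 24 and 1 UMIs (0.0620, 0.00151 to 0.380). H2-Ob, with 13 and 4 UMIs, did not reach the count filter.

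In these macrophages the shares of cells with a member UMI after thinning were 92.8% in the wild-type (88.4 to 95.9) and 50.7% in the SCD library (42.0 to 59.4), with 79 and 20 cells too shallow to thin, and 95.1% and 64.7% at full depth. Both were above the neutrophil shares of 35.8% and 11.0% and the erythroid shares of 52.6% and 22.4%. Of 5 proportions between members, 4 in each library had intervals apart from those in neutrophils. The exceptions were H2-Eb1 per H2-Ab1 in the wild-type and H2-Ab1 per H2-Aa in the SCD library. Against wild-type erythroid cells, the intervals of Cd74 per H2-Aa and of the H2-DMb2 share were apart. Those of H2-Ab1 per H2-Aa (0.780 to 0.937 and 0.752 to 0.959), H2-Eb1 per H2-Ab1 and DO per DM overlapped. In the SCD library all 5 overlapped those of erythroid cells, which held 11 UMIs each of H2-Aa and H2-Ab1. H2-Eb1 gave 0.831 UMIs per H2-Ab1 UMI (0.752 to 0.919) in wild-type macrophages and 0.747 (0.693 to 0.805) in wild-type neutrophils, but 0.370 (0.235 to 0.569) and 0.769 (0.715 to 0.827) in the SCD cells. H2-DMb2 made up 18.9% (12.5 to 26.8) of beta chain UMIs in wild-type macrophages and 53.2% (45.8 to 60.6) in wild-type neutrophils, beside 56.7% in wild-type cDCs. Of 15 cDC markers, 4 were at 0 in wild-type and 11 in SCD macrophages, and their summed level was 152 and 102 CPM, beside 1789 and 2596 CPM in cDCs. In the macrophages the 15 neutrophil markers summed to 7860 and 11208 CPM and the 10 B cell markers to 128 and 283 CPM. The part of other cells' RNA in these values was not tested. With the neutrophil level subtracted the ratio was 0.125, and with the erythroid level subtracted it was 0.412.

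**Figure D5:**
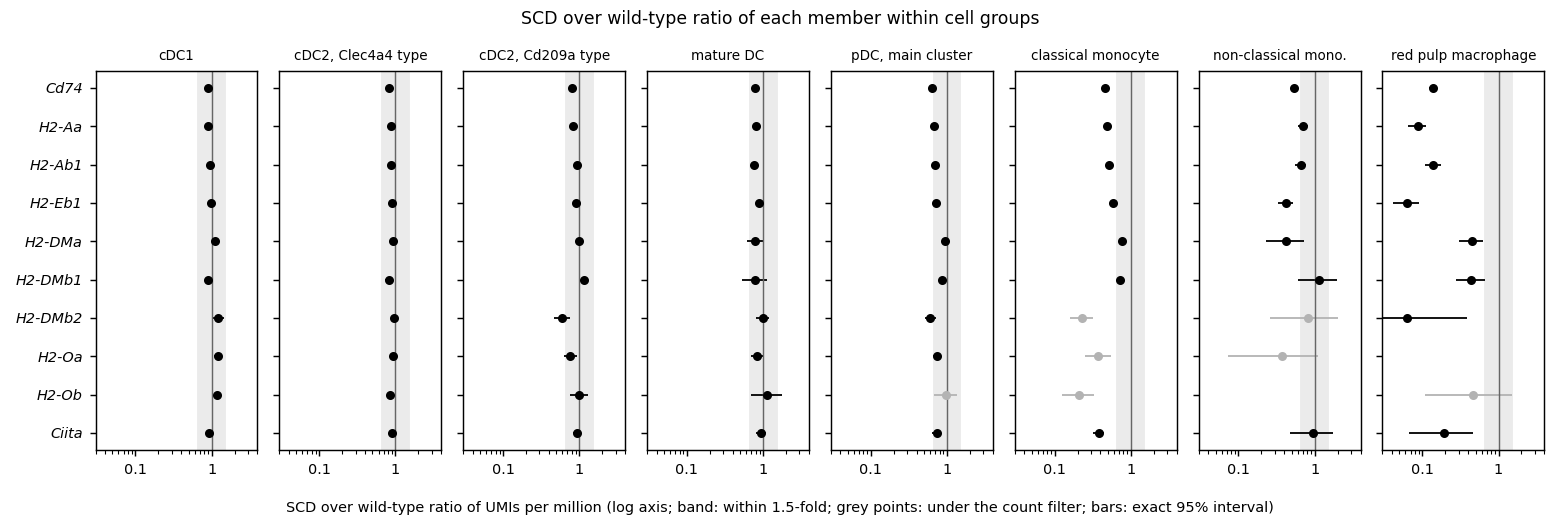
SCD over wild-type ratio of each member (log axis) in 8 cell groups, with exact 95% intervals. Grey points did not reach the count filter, the band spans ratios within 1.5-fold, and H2-Oa in red pulp macrophages and H2-Ob in non-classical monocytes have no point because the SCD cells had 0 UMIs. All black points of the macrophages lie below the band and all of the cDC1s inside it.

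The other genes of the pathway were counted in cDCs from lists of their roles, where 3.81% of all genes were at least 1.5-fold higher and 11.5% lower. H2-Eb2, a further class II beta chain gene, was at 382 CPM (wild-type) and 125 CPM (SCD), a ratio of 0.328 (0.307 to 0.351). It was highest in mature DCs (944 and 593 CPM) and Clec4a4-type cDC2s (391 and 305 CPM) and at 8.26 and 15.9 CPM in cDC1s, the same groups that separated on H2-DMb2. Of 8 endosomal protease and thiol reductase genes tested, 1 was higher and 0 lower: Cst3, an inhibitor of cathepsins, at 5487 and 13703 CPM (ratio 2.50). Within the DC groups Cst3 was past 1.5-fold in mature DCs (2.23) and not in cDC1s (0.968), Clec4a4-type (0.809) or Cd209a-type cDC2s (0.998). The cathepsin genes Ctsd (1.61 in cDC1s and 1.81 in Cd209a-type cDC2s) and Ctsl (1.83 in Cd209a-type cDC2s) were higher. In pooled cDCs Ctss, the cathepsin that trims the invariant chain, had a ratio of 0.725. Of 2 class II turnover genes, Cd83, which protects surface class II from ubiquitination, was lower (0.533), and March1, the ligase itself, was not (1.08). Within the DC groups Cd83 was not past 1.5-fold in cDC1s (0.861), Clec4a4-type cDC2s (1.10) or mature DCs (0.843), and was higher in Cd209a-type cDC2s (2.10) and in dividing cDCs. Cd83 was also a naming marker of mature DCs, so its level there is not independent of the name.

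Of 6 genes of the promoter complex 3 were at least 1.5-fold lower in cDCs: Rfx5 (0.620), Nfya (0.635) and Creb1 (0.659). Within cDC1s and mature DCs 0 of 5 and 0 of 4 were lower, and in Clec4a4-type cDC2s 0 of 6, where Nfyc was higher, while Creb1 was lower in Cd209a-type cDC2s. Of 9 regulators upstream of Ciita, Irf8, which cDC1s need, was higher (357 and 1101 CPM, ratio 3.09), and Irf4 (0.572), Spib (0.467) and Irf1 (0.661) were lower. In cDC1s and Clec4a4-type cDC2s 0 of 7 and 0 of 9 of these regulators passed 1.5-fold in either direction. In mature DCs Irf8 and Irf1 were higher and Irf4, Spib, Ifngr1 and Prdm1 lower, 6 of 10 tested. Of 7 MHC class I genes tested in cDCs, cDC1s and mature DCs and 6 in each cDC2 group, 0 passed 1.5-fold. Of 3 costimulation genes, Cd80 (0.467) and Cd40 (0.402) were lower in cDCs and within cDC1s and Clec4a4-type cDC2s. In mature DCs Cd80 and Cd86 were lower and Cd40 (0.817) was not past 1.5-fold, and in Cd209a-type cDC2s 0 of 2 tested were. Cd40 was also a naming marker of mature DCs, so its level there is not independent of the name.

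Across 11 cell groups of both libraries (22 points, which share libraries and depth), genes outside the members whose log2(CPM + 5) was most like that of the summed members included Dock10 (Pearson r = 0.930), Fgd2 (0.894), Plekha1 (0.894) and Flt3 (0.886), among 6381 genes. Flt3 was also a naming marker. Each member was set likewise against the sum of the other 9. The closest was H2-Aa (r = 0.997) and the least close H2-Ob (0.705), and Ciita was at 0.971.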

How the data were processed

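The authors deposited UMI counts for each gene in each cell, made with Cell Ranger 4.0.0 on GRCm38.p6, per the submitters' processing notes, with no normalization. Following the study's methods, a cell needed 500 to 5000 genes, less than 15% mitochondrial counts and less than 30% ribosomal counts. Counts were scaled with scran 1.30.0 and clustered jointly (2000 variable genes without the members and H2-Ea-ps, 30 principal components, 15 neighbours, Leiden resolution 1, scanpy 1.11.5), which gave 27 clusters. Clusters were scored on marker genes. Subtypes were named from these joint clusters, a choice made after a clustering of the cDCs alone gave a sub-cluster led also by monocyte genes. Clusters with over 25% called doublets took no subtype name; this threshold, like the Scrublet score of 0.2 used in both libraries, was set after seeing the data, since the automatic threshold called 0 SCD cells. Doublets (3.82% of wild-type and 3.02% of SCD cells) were kept. UMIs were summed per library and cell group. Ratios have exact conditional intervals, sums exact Poisson and shares Clopper-Pearson intervals. Genes entered with a mean of 20 CPM and 20 UMIs, and a ratio past 1.5-fold stood for a call, since 1 sample per group allows no test. Depth limits all values through the number of UMIs, and intervals cover counting error only. The named genes were all members, every list gene past 1.5-fold in cDCs and the 5 genes most like the members, of which 1 is not reported here. Ctss, Ctsd, Ctsl, March1, Nfyc, Ifngr1, Prdm1 and Cd86 were named after their values were seen. The calculations were tested on simulated data. The members and lists were chosen with earlier results of these data known.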

Additional observations from a re-analysis of the deposited data

Results flagged for a closer look

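In 2 small dividing clusters a member was at least 1.5-fold higher in the SCD library while it was at least 1.5-fold lower in other groups of cells. In dividing monocytes (45 wild-type and 371 SCD cells) the ratios were 1.56 for H2-Ab1 and 1.51 for H2-Eb1. These were 2 of 6 members tested, against 3.32% of all genes at least 1.5-fold higher. In dividing conventional DCs (132 and 17 cells) the ratios were 1.56 for H2-Eb1 and 1.62 for H2-DMb2. These were 2 of 10 members tested, against 14.5% of all genes at least 1.5-fold higher. Dividing clusters were not run under the other settings. With 1 mouse per group, the difference between the groups of cells was not tested.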

How the results depend on the processing

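No paired analysis was possible because the design has 1 mouse per genotype. The ratio of the summed members over all kept cells (0.198) was 0.186 with at least 1000 genes per cell, 0.157 with no upper gene limit, 0.220 with no mitochondrial or ribosomal filter, 0.202 without called doublets, 0.260 with median-of-ratios scaling and 0.240 as a mean over cells. In the same order it was 0.856, 0.882, 0.745, 0.882 and 0.958 in cDCs (0.886), where the mean over cells stayed within the interval. In pDCs (0.485) it was 0.620 with no upper limit, 0.605 with no mitochondrial or ribosomal filter, 0.510 without doublets, 0.497 with median-of-ratios scaling and 0.545 as a mean over cells. In monocytes (0.445) the 6 settings gave 0.342, 0.415, 0.385, 0.562, 0.482 and 0.584. In red pulp macrophages (0.133) it was 0.120 with at least 1000 genes, 0.164 with no upper limit, 0.115 with no mitochondrial or ribosomal filter and 0.155 as a mean over cells. Members kept among the clustering genes gave 0.897 (cDCs), 0.514 (pDCs) and 0.366 (monocytes). Resolution 2 gave 0.893 in cDCs and 0.424 in monocytes, and total count normalization gave 0.728, 0.593 and 0.328 in cDCs, pDCs and monocytes. Naming each cell by its own marker score gave 0.950, 0.581, 0.326 and 0.106 in cDCs, pDCs, monocytes and macrophages. Subtracting the neutrophil level gave 0.893, 0.492 and 0.466 in cDCs, pDCs and monocytes, and leaving out the doublet-rich cluster gave 0.893, 0.526 and 0.462. Subtracting the erythroid level was run only in monocytes and macrophages, not in cDCs or pDCs. It gave 0.412 in macrophages and no value for the monocyte sum, since the wild-type monocytes lay below that level. For H2-DMa and H2-DMb1 in monocytes it turned the ratios of 0.882 and 0.935 to 1.36 and 1.84. The wild-type make-up of clusters gave 0.879 in cDCs and 0.601 in pDCs. In monocytes it turned the direction, to 1.37 for the sum, 1.34 for Cd74, 1.54 for H2-Aa, 1.41 for H2-Ab1, 1.52 for H2-Eb1 and 1.99 for Ciita, through the weight of 17 SCD cells. For the other settings the cause was not tested.

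At 2-fold, 0 members were lower in cDCs, Cd209a-type cDC2s and the main pDC cluster, against 3.63%, 1.38% and 0.195% of all genes. In classical monocytes 3 were lower and in non-classical monocytes 2, against 1.88% and 2.88% of all genes. With no count filter 8 were at least 1.5-fold lower in monocytes and 8 in classical monocytes, against 24.5% and 20.2% of all genes. Shares of cells with a member UMI were higher at greater depth, in the wild-type and SCD libraries in turn. Thinned to 2000 UMIs they were 99.3% and 89.7% (pDCs), 76.2% and 59.2% (monocytes), 97.6% and 62.1% (macrophages) and 53.1% and 19.9% in neutrophils. Without thinning they were 100% and 99.2% for pDCs, 97.5% and 97.1% for monocytes, 64.7% in SCD macrophages, and 67.9% and 52.2% in neutrophils. Of 108 member ratios, 44 were past 1.5-fold and 30 of these were so in every setting that gave them a value. Several of the 16 settings were run for some groups only. The 108 come from groups that share cells, such as a class and its subtypes, and leave out the dividing clusters. In these groups the share of all genes at least 1.5-fold lower ran from 1.46% (main pDC cluster) to 34.5% (all kept cells). The summed ratio ran from 0.925 to 0.975 in cDC1s and from 0.859 to 0.884 in Clec4a4-type cDC2s, but from 0.408 to 0.858 in Cd209a-type cDC2s, 0.765 to 0.916 in mature DCs and 0.406 to 0.636 in classical monocytes. Several settings were chosen after seeing the data (doublet-rich clusters, make-up, shared barcodes, the erythroid level and the doublet score).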

Other observations

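Cells over the upper limit of 5000 genes were left out of all comparisons. The 297 such wild-type cells held 5115 CPM of the summed members and the 1225 SCD cells 725 CPM.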
